A study of Rattus norvegicus with 21 samples.

Results

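The urea cycle and the liver's amino acid breakdown enzymes were followed as a set of 48 listed genes. They were chosen by name for their function, with earlier results of these data known. A gene was measured where a probe set of the array names it alone, and was represented by the brightest such probe set. This held for 47 of the 48, out of 14217 genes measured in this way. Amdhd1 is not analysed here. The 47 genes have 63 probe sets that name 1 of them alone, no probe set names a member together with another gene, and 10 members have more than 1 probe set.

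The livers came from male rats of the Harlan Sprague Dawley stock that received tert-butylphenyl diphenyl phosphate (BPDP), a flame retardant of the organophosphate class. BPDP in corn oil was dosed by oral gavage every day for 4 days, and left lobe tissue was collected on day 5. Expression was read on 21 Affymetrix arrays: 6 from rats given corn oil alone, called vehicle below, and 3 at each of 64.6, 129.2, 258.1, 516.2 and 1032.5 mg/kg. The lowest of these doses equals 0.169 mmol/kg and the highest 2.7 mmol/kg. No age is stated in the labels used. The treatment protocol speaks of 5 vehicle rats where 6 vehicle arrays are labelled as replicates. If any arrays share a rat, p-values measure spread that is partly technical.

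The urea cycle turns ammonia, which is toxic, into urea. It starts in the mitochondria of hepatocytes with carbamoyl phosphate and citrulline, and ends in the cytosol with arginine, which arginase splits into urea and ornithine. The enzymes that strip nitrogen from amino acids and break down their carbon skeletons are also concentrated in the liver, and many are known to respond to glucocorticoids, glucagon, feeding and dietary protein. Along the liver lobule, urea cycle enzymes are richest around the portal vein, while glutamine synthetase and ornithine aminotransferase are found around the central vein.

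The 3 members that moved most at 1032.5 mg/kg were Oat, ornithine aminotransferase, and Kynu, kynureninase, both lower, and Hibch, an enzyme of valine breakdown, which was higher. Their promoters are printed because these genes carry the largest differences described below. Each run is 300 bases, from 250 before to 50 after the annotated start, read 5′ to 3′ on the gene's strand from RefSeq sequence of assembly GRCr8. Capitals mark GC boxes (GGGCGG) and CCAAT boxes (CCAAT) found on either strand. The Oat promoter lies at chr1:196797705-196798004 on the minus strand, Kynu at chr3:48188036-48188335 on the plus strand and Hibch at chr9:56161747-56162046 on the minus strand.
Oat: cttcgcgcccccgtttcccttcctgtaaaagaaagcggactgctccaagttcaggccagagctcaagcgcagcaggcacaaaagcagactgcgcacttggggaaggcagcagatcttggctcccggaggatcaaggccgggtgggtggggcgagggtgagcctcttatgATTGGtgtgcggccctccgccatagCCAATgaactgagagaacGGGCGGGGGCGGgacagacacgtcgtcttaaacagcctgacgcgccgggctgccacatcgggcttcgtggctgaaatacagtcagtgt
Kynu: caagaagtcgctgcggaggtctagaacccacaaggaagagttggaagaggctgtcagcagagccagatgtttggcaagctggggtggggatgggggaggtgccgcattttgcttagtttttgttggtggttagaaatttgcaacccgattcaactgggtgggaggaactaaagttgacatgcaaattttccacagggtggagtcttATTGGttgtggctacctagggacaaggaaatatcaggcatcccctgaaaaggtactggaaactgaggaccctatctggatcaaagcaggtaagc
Hibch: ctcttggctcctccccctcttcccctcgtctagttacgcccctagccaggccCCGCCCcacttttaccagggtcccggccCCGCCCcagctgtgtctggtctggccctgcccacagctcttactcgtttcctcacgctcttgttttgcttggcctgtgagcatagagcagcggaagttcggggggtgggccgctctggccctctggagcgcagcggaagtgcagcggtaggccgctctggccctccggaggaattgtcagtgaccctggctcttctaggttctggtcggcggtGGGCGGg
Oat holds 2 GC boxes and 2 CCAAT boxes, Kynu 1 CCAAT box and no GC box, and Hibch 3 GC boxes and no CCAAT box. The GC boxes of Oat lie end to end. A GC box occurs in 33.1% and a CCAAT box in 37.5% of the 33469 promoters of the same length in the RefSeq table. Of the 47 members, 39 have an entry there, and 20 of these hold a GC box and 23 a CCAAT box. Neither an E-box (CACGTG), a D-box (TTATGTAA) nor a full cAMP response element (TGACGTCA) was found in any of the 39, against 6.42%, 0.893% and 1.83% of all promoters. The nuclear receptor core motif AGGTCA occurred in 12 of the 39 and in none of the 3 printed here, against 16.2% of all. These matches describe letters in the window and were not tested as binding sites.

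Across the whole set, members moved in both directions, and the larger doses moved more of them. Each dose was compared with the vehicle in limma over all 31042 probe sets, and a gene was called, and is said below to have risen or fallen, where its Benjamini-Hochberg adjusted p was below 0.05. At 64.6 mg/kg 1 member was called, lower, beside a background of 0.387% of all genes called and 0.19% called lower. No member was called at 129.2 mg/kg, beside 0.521% of genes. There 12 of the 47 had an unadjusted p under 0.05 in limma, as had 1295 of all 14217 genes. At 258.1 mg/kg 3 rose and 2 fell, beside 3.56% of genes, 2.23% higher and 1.33% lower. At 516.2 mg/kg 6 rose and 6 fell, or 25.5% of the members, beside 8.93% of genes, 6.3% higher and 2.64% lower. At 1032.5 mg/kg 5 rose and 7 fell, again 25.5%, beside 8.95% of genes, 4.81% higher and 4.14% lower. All doses share the same vehicle arrays. Because the members were chosen with earlier results of these data known, their share called is not an independent result.

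The members are bright genes, and bright genes were called more often. Among the 8633 genes at least as bright as the dimmest member other than Tdh, 12.4% were called at 516.2 mg/kg and 12.7% at 1032.5 mg/kg. That group has only a lower limit, the Bcat2 mean of 6.85 log2, and most members lay far above it. It is therefore not matched to the members in brightness, and what brightness adds to their share was not tested. The median log2 change over the 47 members was 0.038 at 516.2 mg/kg and 0.020 at 1032.5 mg/kg, beside 0.002 and -0.013 over all genes. Averaged over the members, the arrays at 1032.5 mg/kg lay -0.031 ± 0.051 log2 (SD, n = 3) from the vehicle mean, within the vehicle's own SD of 0.069 (n = 6). The set had no common shift of the size its single genes showed. All 3 arrays lay above all 6 vehicle arrays for 10 members at 1032.5 mg/kg and below them for 7, where 6.89% and 7.08% of all genes did so. At 516.2 mg/kg this held for 7 above and 7 below (8.97% and 5.25% of genes), and at 258.1 mg/kg for 6 and 6 (5.66% and 3.52%). It held for 2 and 3 members at 129.2 mg/kg (3.03% and 2% of genes) and for 5 and 2 at 64.6 mg/kg (3.23% and 2.2%). The division of the calls at 1032.5 mg/kg depended on the scaling, as it was 6 higher and 4 lower after subtraction of each array's median. With cyclic loess the calls at 516.2 mg/kg were 4 higher and 8 lower, and with the array median subtracted 8 higher and 6 lower.

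**Figure D1:**
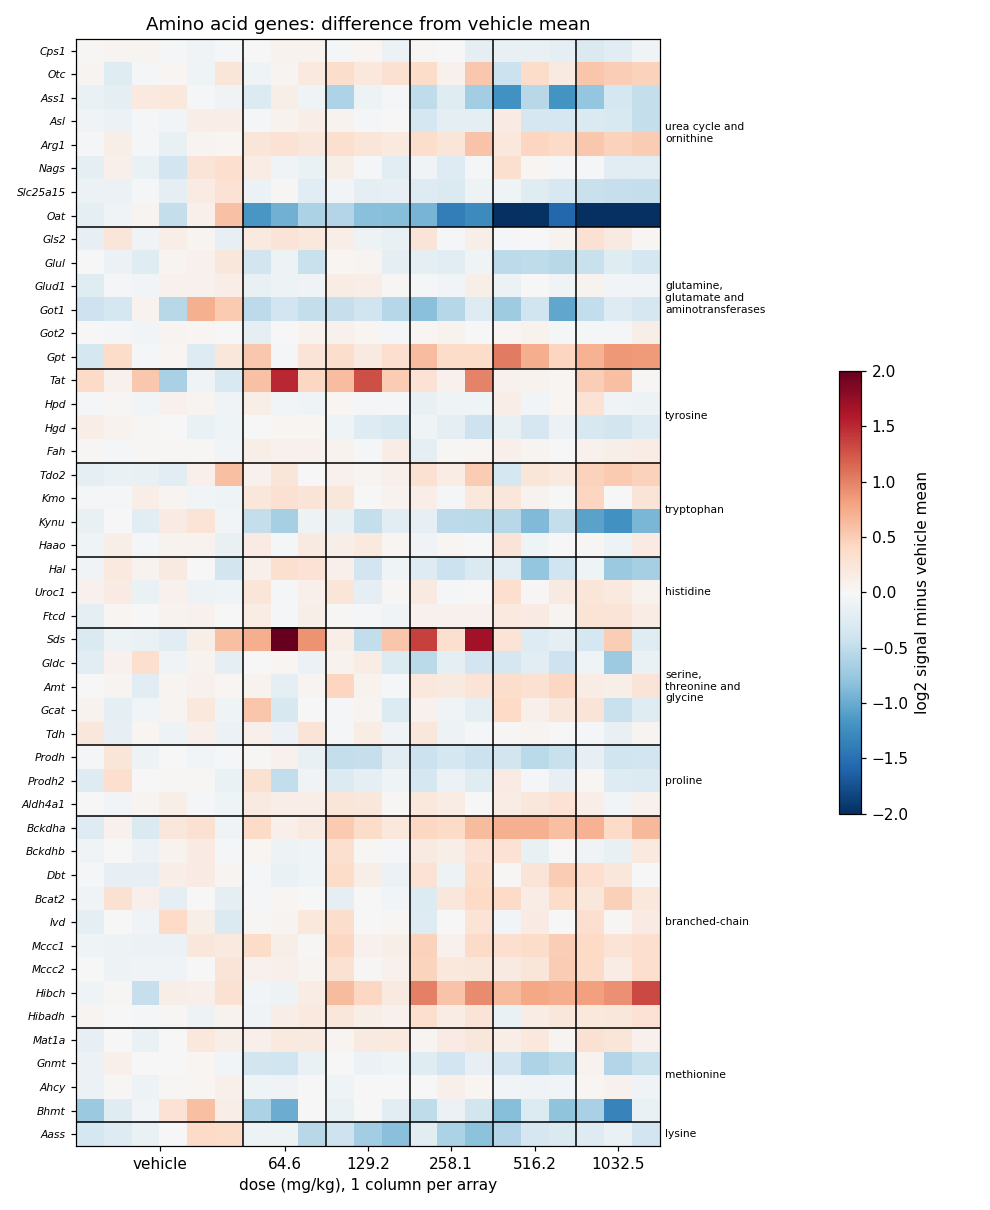
Log2 signal of the 47 members in each of the 21 arrays, minus the gene's vehicle mean. Columns are arrays grouped by dose in mg/kg, rows are genes grouped by pathway, red is higher and blue lower than the vehicle mean, and the colour scale ends at 2 log2 units in either direction. Oat turns blue at every dose, and the branched-chain rows turn mostly red from 258.1 mg/kg. All 3 arrays are red for Sds at 64.6 mg/kg and for Tat at 64.6 and 129.2 mg/kg.

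Within the urea cycle, the enzymes did not move together. At 1032.5 mg/kg Otc and Arg1 rose, Asl, Slc25a15 and Oat fell, and Cps1, Ass1 and Nags were not called. Ass1 fell at 516.2 mg/kg instead. Of the 8 genes of this pathway 3 were called at 516.2 mg/kg and 5 at 1032.5 mg/kg, beside 8.93% and 8.95% of all genes. In the mean over these 8 genes all 3 arrays at each of the highest 3 doses lay below every vehicle array, at -0.253 to -0.171 log2 from the vehicle mean at 258.1 mg/kg, -0.422 to -0.305 at 516.2 mg/kg and -0.351 to -0.349 at 1032.5 mg/kg, where the vehicle arrays spanned -0.127 to 0.191. A mean of this kind follows its largest member, which here was Oat. The median over the 8 genes was -0.271 at 1032.5 mg/kg.

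Oat moves the amino group of ornithine onto a keto acid and so takes ornithine out of the cycle. Vehicle arrays gave Oat log2 signals of 10.57, 11.04 and 11.62 as lowest, median and highest. The Oat signals with BPDP were 9.88, 10.07 and 10.40 at 64.6 mg/kg, 10.45, 10.20 and 10.19 at 129.2 mg/kg, 10.10, 9.66 and 9.77 at 258.1 mg/kg, 8.86, 9.07 and 9.47 at 516.2 mg/kg, and 8.99, 8.81 and 8.99 at 1032.5 mg/kg. Every dosed array lay below every vehicle array, and the lowest signals were at the highest 2 doses. Oat fell 1.90-fold at 64.6 mg/kg (log2 change -0.92, SE 0.175, adjusted p = 0.0219) and 2.29-fold at 258.1 mg/kg (adjusted p = 0.00061). It fell 3.75-fold at 516.2 mg/kg (adjusted p = 2.03e-06) and 4.32-fold at 1032.5 mg/kg (log2 change -2.11, SE 0.175, adjusted p = 3.16e-07). At 129.2 mg/kg the log2 change was -0.76 with an adjusted p of 0.0762. Across the 15 dosed arrays, which do not involve the vehicle, Oat changed by -0.35 log2 per dose step (SE 0.047, adjusted p = 0.000438). The call at 64.6 mg/kg was lost without vehicle replicate 5 or without replicate 1 or 2 of that dose, with an adjusted p of up to 0.177, and with only the groups compared (0.106). Calls at the 3 highest doses held with each array left out in turn. In whole liver, fewer cells of a type and less RNA per cell cannot be told apart.

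The pericentral marker list holds both Oat and Glul. At 1032.5 mg/kg 5 of its 12 measured genes were lower and none higher, beside 4.14% and 4.81% of all genes. The mean log2 level of the list was 9.98 to 10.19 in those arrays against 10.43 to 10.62 in the vehicle. Beside Oat and Glul, the fallen genes were Cyp1a2, a cytochrome P450, at 2.24-fold lower, Gulo, an enzyme of vitamin C synthesis, at 1.96-fold lower, and Rgn. The periportal list holds the members Cps1, Ass1, Arg1, Sds, Hal, Gls2 and Gldc. At 1032.5 mg/kg 3 of its 14 genes fell and 1 rose. Those that fell were Apoa4 (4.3-fold), Aldh1b1 (2.08-fold) and Cyp2f4 (1.62-fold), none of them a member, and Arg1 rose. The mean of the periportal list, in which Apoa4 changed most, went from 11.60 to 11.76 in the vehicle to 11.30 to 11.43 at 1032.5 mg/kg. The part of either zone in these results was not tested.

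Otc makes citrulline from ornithine and carbamoyl phosphate in the mitochondrion. For Otc, the vehicle arrays held a lowest, median and highest log2 signal of 12.17, 12.42 and 12.65. With BPDP, Otc signals were 12.32, 12.46 and 12.60 at 64.6 mg/kg, 12.75, 12.61 and 12.71 at 129.2 mg/kg, 12.77, 12.49 and 12.94 at 258.1 mg/kg, 11.98, 12.77 and 12.59 at 516.2 mg/kg, and 12.95, 12.90 and 12.86 at 1032.5 mg/kg. At 1032.5 mg/kg all 3 arrays lay above the vehicle range, whereas at 516.2 mg/kg 1 array lay below it and another above. Otc rose 1.41-fold at 1032.5 mg/kg (log2 change 0.50, SE 0.135, adjusted p = 0.0299). This call was lost without vehicle replicate 2 or 5, or without any 1 array of that dose, with an adjusted p of up to 0.112. It was also lost with the replicate number as a block and with a covariate for the 5′ minus 3′ signal of the control probes (adjusted p up to 0.0533).

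Cps1, carbamoyl phosphate synthetase, feeds the cycle with ammonia and is among the most abundant mitochondrial proteins of the liver. Cps1 had a lowest, median and highest log2 signal of 13.98, 14.05 and 14.11 among the vehicle arrays. Dosed arrays had Cps1 at 14.04, 14.12 and 14.12 at 64.6 mg/kg, 14.01, 14.09 and 13.93 at 129.2 mg/kg, 14.07, 14.04 and 13.86 at 258.1 mg/kg, 13.89, 13.89 and 13.87 at 516.2 mg/kg, and 13.76, 13.85 and 13.98 at 1032.5 mg/kg. At 516.2 mg/kg the 3 arrays lay just below the vehicle range, and in the other groups they overlapped with it. The log2 change at 1032.5 mg/kg was -0.18 (95% interval -0.33 to -0.04, adjusted p = 0.13), which did not pass. A second, dimmer Cps1 probe set fell at 516.2 mg/kg (12.13 against 12.74 in the vehicle, adjusted p = 0.043) and was not called at 1032.5 mg/kg (adjusted p = 0.781). Nags makes N-acetylglutamate, which Cps1 needs in order to work. Vehicle arrays gave Nags log2 signals of 10.17, 10.53 and 10.88 as lowest, median and highest. The Nags signals with BPDP were 10.70, 10.48 and 10.42 at 64.6 mg/kg, 10.67, 10.52 and 10.34 at 129.2 mg/kg, 10.48, 10.30 and 10.51 at 258.1 mg/kg, 10.86, 10.59 and 10.50 at 516.2 mg/kg, and 10.50, 10.33 and 10.33 at 1032.5 mg/kg. The dosed arrays all fell within the vehicle range, and no dose was called (adjusted p 0.608 at 1032.5 mg/kg).

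Ass1 joins citrulline to aspartate. For Ass1, the vehicle arrays held a lowest, median and highest log2 signal of 13.05, 13.19 and 13.44. With BPDP, Ass1 signals were 12.96, 13.34 and 13.14 at 64.6 mg/kg, 12.62, 13.13 and 13.19 at 129.2 mg/kg, 12.72, 12.99 and 12.53 at 258.1 mg/kg, 12.02, 12.68 and 12.04 at 516.2 mg/kg, and 12.46, 12.89 and 12.76 at 1032.5 mg/kg. All 3 arrays of each of the highest 3 doses lay below the vehicle range, with the lowest signals at 516.2 mg/kg. Ass1 fell 1.98-fold at 516.2 mg/kg (SE 0.158 log2, adjusted p = 0.000816). At 1032.5 mg/kg the signal was 1.44-fold lower but the adjusted p was 0.0522, and 4 of the 8 other settings tried put it past the threshold. Asl, argininosuccinate lyase, takes the next step and releases arginine. Asl had a lowest, median and highest log2 signal of 11.39, 11.45 and 11.63 among the vehicle arrays. Dosed arrays had Asl at 11.47, 11.56 and 11.63 at 64.6 mg/kg, 11.57, 11.48 and 11.50 at 129.2 mg/kg, 11.15, 11.30 and 11.32 at 258.1 mg/kg, 11.66, 11.15 and 11.17 at 516.2 mg/kg, and 11.21, 11.19 and 11.02 at 1032.5 mg/kg. At 516.2 mg/kg 1 array lay above the vehicle range and the other arrays of that dose below it, while at 1032.5 mg/kg all 3 lay below. Asl fell 1.28-fold at 1032.5 mg/kg (log2 change -0.36, SE 0.098, adjusted p = 0.0326). That call was lost without vehicle replicate 5 or 6, or without any 1 array of the dose, with an adjusted p of up to 0.167, and the second Asl probe set did not pass (adjusted p = 0.378). The call for Asl at 1032.5 mg/kg was also lost with array median subtracted (adjusted p = 0.0725), the replicate block (0.219) or averaged probe sets (0.0897).

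Arg1, arginase, ends the cycle by releasing urea. Vehicle arrays gave Arg1 log2 signals of 13.56, 13.73 and 13.83 as lowest, median and highest. The Arg1 signals with BPDP were 13.96, 14.004 and 13.94 at 64.6 mg/kg, 14.04, 13.96 and 13.91 at 129.2 mg/kg, 14.06, 13.96 and 14.28 at 258.1 mg/kg, 13.93, 14.14 and 14.10 at 516.2 mg/kg, and 14.26, 14.17 and 14.23 at 1032.5 mg/kg. Every dosed array lay above the highest vehicle array. Arg1 rose 1.31-fold at 258.1 mg/kg (adjusted p = 0.00904), 1.27-fold at 516.2 mg/kg (adjusted p = 0.0124) and 1.42-fold at 1032.5 mg/kg (log2 change 0.50, SE 0.078, adjusted p = 0.000327). The call for Arg1 at 258.1 mg/kg was lost without replicate 3 of 258.1 mg/kg (adjusted p = 0.116), in a fit of only the groups compared (0.0574) and with the replicate number as a block (0.0569). That for Arg1 at 516.2 mg/kg was lost without replicate 3 of 516.2 mg/kg (adjusted p = 0.0681) and with the block (0.0709). The slope across dosed arrays was 0.06 log2 per step and was not called (adjusted p = 0.164).

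Slc25a15 carries ornithine into the mitochondrion. For Slc25a15, the vehicle arrays held a lowest, median and highest log2 signal of 12.38, 12.50 and 12.86. With BPDP, Slc25a15 signals were 12.46, 12.60 and 12.36 at 64.6 mg/kg, 12.52, 12.37 and 12.41 at 129.2 mg/kg, 12.31, 12.28 and 12.47 at 258.1 mg/kg, 12.48, 12.32 and 12.26 at 516.2 mg/kg, and 12.12, 12.11 and 12.09 at 1032.5 mg/kg. At 1032.5 mg/kg the 3 arrays lay close together and below all vehicle arrays. Slc25a15 fell 1.38-fold at that dose (log2 change -0.47, SE 0.096, adjusted p = 0.0044). None of its 5 other probe sets passed at 1032.5 mg/kg, with adjusted p-values from 0.0753 to 0.935. The log2 changes were -0.39, -0.43 and -0.43 for those at 11.92, 11.45 and 11.37 in the vehicle. For those at 9.12 and 5.56 the changes were -0.23 and -0.02. Averaging all Slc25a15 probe sets lost the call as well (adjusted p = 0.116).

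**Figure D2:**
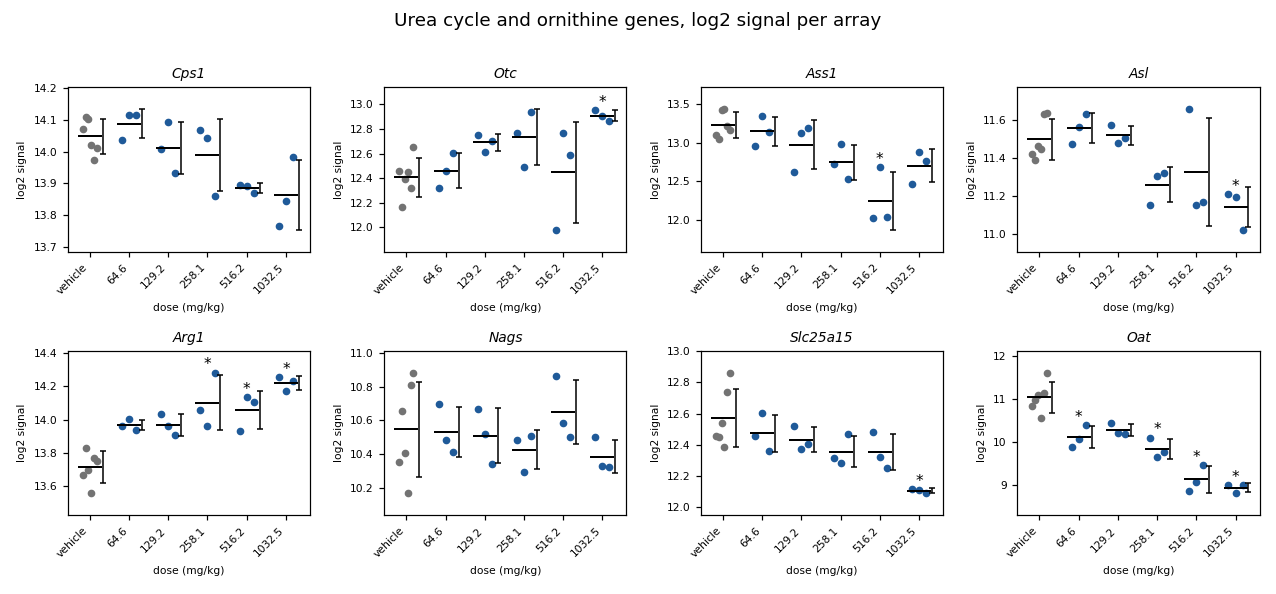
Log2 signal of the 8 urea cycle and ornithine genes per array, by dose in mg/kg. Points are arrays (vehicle grey, n = 6; dosed blue, n = 3), black bars the group mean, whiskers the SD, and asterisks mark doses called against the vehicle. Oat lies at 8.81 to 8.99 at 1032.5 mg/kg, against a vehicle range of 10.57 to 11.62, while every dosed Arg1 array lies above 13.83, the highest vehicle value.

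Of the 6 genes that handle glutamine, glutamate and the aminotransferases, Glul fell and Gpt rose at both of the highest doses, and the rest were not called at any dose. Glul, glutamine synthetase, binds ammonia that the urea cycle has let pass. Glul had a lowest, median and highest log2 signal of 12.04, 12.32 and 12.52 among the vehicle arrays. Dosed arrays had Glul at 11.92, 12.18 and 11.84 at 64.6 mg/kg, 12.34, 12.34 and 12.10 at 129.2 mg/kg, 12.11, 12.06 and 12.21 at 258.1 mg/kg, 11.77, 11.79 and 11.74 at 516.2 mg/kg, and 11.84, 12.05 and 11.94 at 1032.5 mg/kg. The 3 arrays at 516.2 mg/kg lay close together and below the vehicle range, while 1 array at 1032.5 mg/kg overlapped with it. Glul fell 1.44-fold at 516.2 mg/kg (log2 change -0.52, SE 0.097, adjusted p = 0.00287) and 1.27-fold at 1032.5 mg/kg (adjusted p = 0.0376). The later call was lost without vehicle replicate 1, 4, 5 or 6, or without any 1 array of the dose, with an adjusted p of up to 0.18. It was also lost in 7 of 10 other settings: only the groups compared, array median subtracted, replicate block, 5′ minus 3′ covariate, averaging the gene's probe sets, and either of its other probe sets (adjusted p from 0.0649 to 0.999). At 516.2 mg/kg 1 of the other probe sets passed (adjusted p = 0.0209) and 1 did not (0.182).

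Gls2, liver glutaminase, releases ammonia from glutamine. Vehicle arrays gave Gls2 log2 signals of 11.71, 11.87 and 12.12 as lowest, median and highest. The Gls2 signals with BPDP were 12.08, 12.13 and 12.09 at 64.6 mg/kg, 12.02, 11.78 and 11.73 at 129.2 mg/kg, 12.13, 11.86 and 11.996 at 258.1 mg/kg, 11.84, 11.89 and 11.95 at 516.2 mg/kg, and 12.18, 12.06 and 11.92 at 1032.5 mg/kg. The groups overlapped, and no dose was called (log2 change 0.17 at 1032.5 mg/kg, adjusted p = 0.386). Gpt, alanine aminotransferase, passes the amino group of alanine to form glutamate and pyruvate. For Gpt, the vehicle arrays held a lowest, median and highest log2 signal of 10.04, 10.40 and 10.76. With BPDP, Gpt signals were 10.93, 10.35 and 10.65 at 64.6 mg/kg, 10.75, 10.57 and 10.73 at 129.2 mg/kg, 11.01, 10.76 and 10.76 at 258.1 mg/kg, 11.43, 11.12 and 10.81 at 516.2 mg/kg, and 11.08, 11.26 and 11.24 at 1032.5 mg/kg. At the highest 3 doses every array was above the highest vehicle array, though at 258.1 mg/kg only narrowly (lowest array 10.757 against 10.755). Gpt rose 1.66-fold at 516.2 mg/kg (adjusted p = 0.00669) and 1.75-fold at 1032.5 mg/kg (log2 change 0.81, SE 0.151, adjusted p = 0.00195), with a slope of 0.15 log2 per step across dosed arrays (adjusted p = 0.0174). Without replicate 1 of 516.2 mg/kg the call at that dose was lost (adjusted p = 0.0805), and the slope was lost without replicate 2 of 64.6 mg/kg (adjusted p = 0.0635).

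Glud1, glutamate dehydrogenase, and Got2, mitochondrial aspartate aminotransferase, stayed within 0.11 log2 of the vehicle mean at every dose, and no change was called. Got1, the cytosolic aspartate aminotransferase, varied widely among vehicle arrays, from 9.88 to 11.15, and its log2 change of -0.71 at 516.2 mg/kg had an adjusted p of 0.0595.

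Branched-chain amino acid breakdown held genes that lay nearly all on the higher side. All 9 genes had a positive log2 change at 258.1 and 516.2 mg/kg and 8 of 9 at 1032.5 mg/kg, of which 2, 3 and 2 rose and none fell. Of all genes 2.23%, 6.3% and 4.81% were called higher and 1.33%, 2.64% and 4.14% lower at these doses. The median change of the 9 was 0.248, 0.298 and 0.286 at these doses, beside 0.005, 0.002 and -0.013 over all genes. In the mean over the 9 genes the vehicle arrays spanned -0.135 to 0.110. The arrays at 258.1 mg/kg spanned 0.185 to 0.416, those at 516.2 mg/kg 0.263 to 0.382 and those at 1032.5 mg/kg 0.277 to 0.390, all above the vehicle.

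Hibch splits the coenzyme A ester of 3-hydroxyisobutyrate in valine breakdown. Hibch had a lowest, median and highest log2 signal of 9.69, 10.21 and 10.45 among the vehicle arrays. Dosed arrays had Hibch at 10.10, 10.04 and 10.29 at 64.6 mg/kg, 10.78, 10.56 and 10.32 at 129.2 mg/kg, 11.16, 10.72 and 11.10 at 258.1 mg/kg, 10.78, 10.92 and 10.88 at 516.2 mg/kg, and 10.96, 11.05 and 11.46 at 1032.5 mg/kg. Every array at the 3 highest doses lay above the vehicle range, whereas at 64.6 mg/kg all 3 lay within it. Hibch rose 1.80-fold at 258.1 mg/kg (adjusted p = 0.00263), 1.64-fold at 516.2 mg/kg (adjusted p = 0.00566) and 2.02-fold at 1032.5 mg/kg (log2 change 1.01, SE 0.145, adjusted p = 0.000148). Its slope across the dosed arrays was 0.23 log2 per step (SE 0.039, adjusted p = 0.00254). These calls held with each array left out in turn.

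Bckdha is a subunit of the branched-chain keto acid dehydrogenase, the committed step for leucine, isoleucine and valine. Vehicle arrays gave Bckdha log2 signals of 10.41, 10.71 and 11.01 as lowest, median and highest. The Bckdha signals with BPDP were 11.08, 10.80 and 10.88 at 64.6 mg/kg, 11.23, 11.07 and 10.91 at 129.2 mg/kg, 11.11, 11.08 and 11.33 at 258.1 mg/kg, 11.41, 11.42 and 11.30 at 516.2 mg/kg, and 11.40, 11.08 and 11.35 at 1032.5 mg/kg. From 258.1 mg/kg on, all arrays lay above the highest vehicle array. Bckdha rose 1.39-fold at 258.1 mg/kg (adjusted p = 0.048), 1.60-fold at 516.2 mg/kg (log2 change 0.67, SE 0.124, adjusted p = 0.00266) and 1.49-fold at 1032.5 mg/kg (adjusted p = 0.00577). The call at 258.1 mg/kg was lost in 15 of the 21 fits that each left out 1 array, with an adjusted p of up to 0.277. The slope of 0.10 log2 per step (adjusted p = 0.0458) does not use the vehicle. It was lost in 12 of the 15 fits that left out a dosed array. The call for Bckdha at 258.1 mg/kg was also lost with only the groups compared (0.135) or array median subtracted (0.055). Averaging the gene's probe sets lost all 3 calls (adjusted p = 0.711, 0.396 and 0.699) and the slope (0.64). A dimmer Bckdha probe set, at 6.15 in the vehicle, was not called at any of these doses and read -0.19 log2 at 1032.5 mg/kg (adjusted p = 0.894).

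Mccc1 is a subunit of the carboxylase that acts in leucine breakdown. For Mccc1, the vehicle arrays held a lowest, median and highest log2 signal of 9.64, 9.67 and 10.00. With BPDP, Mccc1 signals were 10.13, 9.88 and 9.80 at 64.6 mg/kg, 10.17, 9.85 and 9.89 at 129.2 mg/kg, 10.23, 9.86 and 10.15 at 258.1 mg/kg, 10.10, 10.14 and 10.25 at 516.2 mg/kg, and 10.16, 10.04 and 10.10 at 1032.5 mg/kg. The arrays of the highest 2 doses lay above the vehicle range, and those of the lower doses overlapped with it. Mccc1 rose 1.32-fold at 516.2 mg/kg (log2 change 0.40, SE 0.108, adjusted p = 0.0343). The call was lost without vehicle replicate 1, 2, 3 or 4, or without any 1 array of that dose, with an adjusted p of up to 0.156. The call for Mccc1 at 516.2 mg/kg was also lost with only the groups compared (adjusted p = 0.0531), cyclic loess (0.054) or the 5′ minus 3′ covariate (0.0682). Mccc2, its partner subunit, changed by 0.31 log2 at 516.2 mg/kg (adjusted p = 0.0609) and Hibadh, the next valine enzyme after Hibch, by 0.24 at 1032.5 mg/kg (adjusted p = 0.0916). Bckdhb and Dbt, the other subunits of the dehydrogenase among the members, Bcat2, the aminotransferase, and Ivd, which acts on the leucine product, were not called at any dose.

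**Figure D3:**
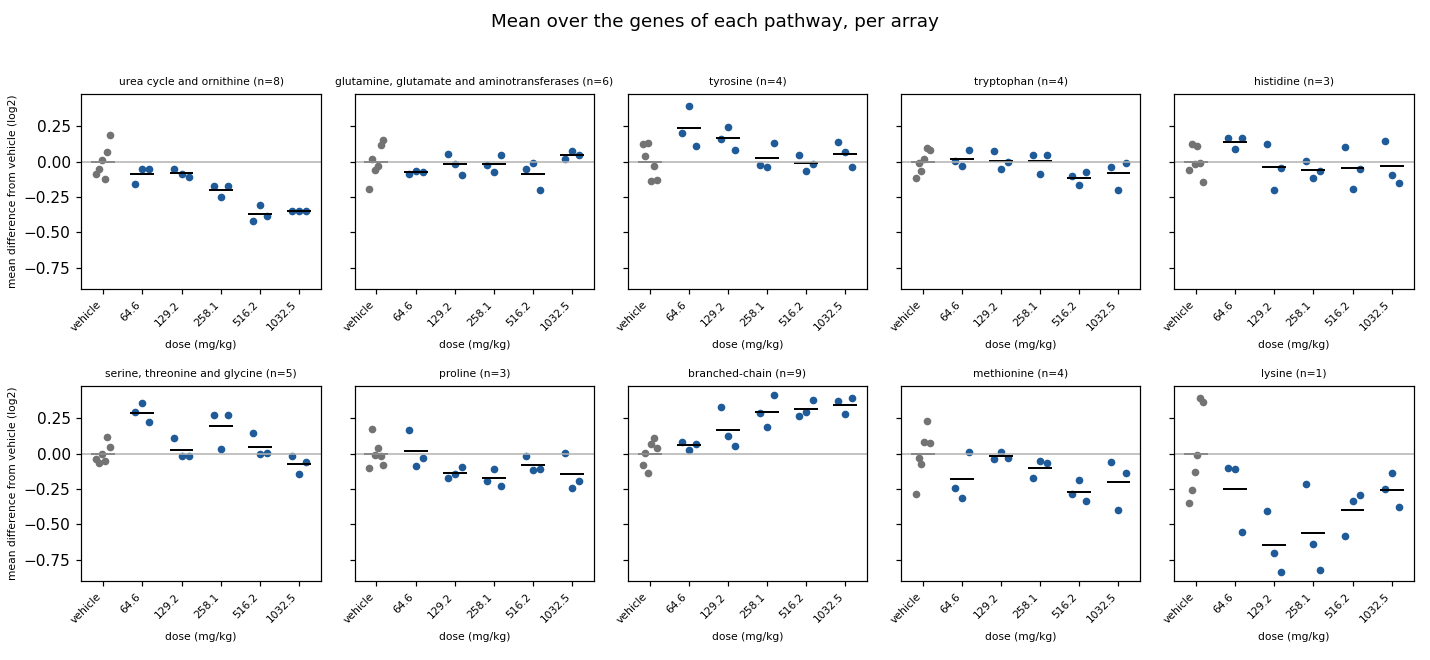
Mean difference from the vehicle mean (log2) over the genes of each of 10 pathways, per array, by dose in mg/kg. Points are arrays (vehicle grey, n = 6; dosed blue, n = 3) and black bars the group mean, with the number of genes in brackets. Branched-chain arrays at the 3 highest doses lie from 0.185 to 0.416, above all vehicle arrays, and the urea cycle arrays of the same doses lie at -0.171 or lower, below all vehicle arrays.

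The 4 tryptophan genes showed 1 fall, in Kynu. The enzyme cleaves kynurenine and hydroxykynurenine on the route towards NAD. Kynu had a lowest, median and highest log2 signal of 11.98, 12.18 and 12.48 among the vehicle arrays. Dosed arrays had Kynu at 11.73, 11.55 and 12.10 at 64.6 mg/kg, 12.06, 11.73 and 11.98 at 129.2 mg/kg, 12.04, 11.69 and 11.66 at 258.1 mg/kg, 11.65, 11.32 and 11.73 at 516.2 mg/kg, and 11.14, 10.99 and 11.30 at 1032.5 mg/kg. At 516.2 and 1032.5 mg/kg every array lay below the vehicle range, and the signals at 1032.5 mg/kg were below all others. Kynu fell 1.56-fold at 516.2 mg/kg (adjusted p = 0.00738) and 2.09-fold at 1032.5 mg/kg (log2 change -1.07, SE 0.135, adjusted p = 3.84e-05), calls that held with each array left out. The slope of -0.17 log2 per step (adjusted p = 0.0366) was lost in 7 of the 15 fits that left out a dosed array, with an adjusted p of up to 0.119. It was also lost with array median subtracted (0.0581). Tdo2, tryptophan dioxygenase, opens the pathway and is induced by glucocorticoids. Vehicle arrays gave Tdo2 log2 signals of 13.18, 13.27 and 14.01 as lowest, median and highest. The Tdo2 signals with BPDP were 13.50, 13.64 and 13.42 at 64.6 mg/kg, 13.50, 13.46 and 13.51 at 129.2 mg/kg, 13.71, 13.56 and 13.91 at 258.1 mg/kg, 13.06, 13.66 and 13.60 at 516.2 mg/kg, and 13.87, 13.93 and 13.87 at 1032.5 mg/kg. The highest vehicle array, replicate 6, lay above every dosed array, while the other vehicle arrays read 13.18 to 13.51. The log2 change of 0.48 at 1032.5 mg/kg did not pass (adjusted p = 0.069). It passed in 2 of the 21 fits that each left out 1 array, where the adjusted p ran from 0.00259 to 0.2. It also passed in 1 of 8 other settings (adjusted p from 0.00737 to 0.128). Kmo and Haao, which act before and after Kynu, were not called at any dose, with log2 changes of 0.22 and 0.03 at 1032.5 mg/kg.

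Among the 4 tyrosine genes, Hgd, homogentisate dioxygenase, fell 1.24-fold at 1032.5 mg/kg (log2 change -0.31, SE 0.083, adjusted p = 0.0254), from 11.59 to 11.86 in the vehicle to 11.36 to 11.47. The call was lost without vehicle replicate 1 or 2, or without any 1 array of the dose (adjusted p up to 0.126), and with the 5′ minus 3′ covariate (0.0556). Tat, tyrosine aminotransferase, is a classic glucocorticoid-induced gene of the liver. For Tat, the vehicle arrays held a lowest, median and highest log2 signal of 9.02, 9.68 and 10.21. With BPDP, Tat signals were 10.25, 11.17 and 10.09 at 64.6 mg/kg, 10.29, 10.96 and 10.18 at 129.2 mg/kg, 9.96, 9.75 and 10.67 at 258.1 mg/kg, 9.75, 9.75 and 9.70 at 516.2 mg/kg, and 10.17, 10.27 and 9.70 at 1032.5 mg/kg. Single arrays at 64.6, 129.2 and 258.1 mg/kg lay well above the vehicle range, while the 3 arrays at 516.2 mg/kg lay near the vehicle median. No dose was called, the nearest being 64.6 mg/kg (log2 change 0.83, 95% interval 0.28 to 1.38, adjusted p = 0.29). Hpd and Fah, earlier and later in the same route, were not called at any dose.

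Of the 3 proline genes, Prodh, the first enzyme of proline breakdown, fell at the 3 highest doses. Prodh had a lowest, median and highest log2 signal of 10.32, 10.39 and 10.67 among the vehicle arrays. Dosed arrays had Prodh at 10.44, 10.51 and 10.28 at 64.6 mg/kg, 9.94, 9.96 and 10.21 at 129.2 mg/kg, 9.99, 10.08 and 9.99 at 258.1 mg/kg, 10.06, 9.88 and 9.98 at 516.2 mg/kg, and 10.27, 10.02 and 10.03 at 1032.5 mg/kg. From 129.2 mg/kg on, all arrays lay below the vehicle range, and at 64.6 mg/kg they overlapped with it. Prodh fell 1.32-fold at 258.1 mg/kg (adjusted p = 0.0168), 1.36-fold at 516.2 mg/kg (log2 change -0.45, SE 0.089, adjusted p = 0.00465) and 1.25-fold at 1032.5 mg/kg (adjusted p = 0.0365). The fall of Prodh at 258.1 mg/kg was not called without replicate 1 or 3 of that dose (adjusted p up to 0.102), with the replicate block (0.0582) or after averaging its probe sets (0.339). The fall of Prodh at 1032.5 mg/kg was not called without vehicle replicate 2 or 4 or replicate 2 or 3 of that dose (adjusted p up to 0.18). It was also not called with only the groups compared (adjusted p = 0.0829), array median subtracted (0.0585), the replicate block (0.108) or the 5′ minus 3′ covariate (0.0737). A second, dim probe set did not pass at any of these doses. Prodh2, which acts on hydroxyproline, and Aldh4a1, the next enzyme, were not called.

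Gnmt, glycine N-methyltransferase, uses up S-adenosylmethionine and was the 1 methionine gene of 4 to be called. Vehicle arrays gave Gnmt log2 signals of 12.99, 13.11 and 13.21 as lowest, median and highest. The Gnmt signals with BPDP were 12.74, 12.71 and 12.97 at 64.6 mg/kg, 13.11, 12.99 and 13.01 at 129.2 mg/kg, 12.86, 12.73 and 12.93 at 258.1 mg/kg, 12.72, 12.48 and 12.56 at 516.2 mg/kg, and 13.16, 12.52 and 12.65 at 1032.5 mg/kg. All arrays at 64.6, 258.1 and 516.2 mg/kg lay below the vehicle range, but 1 array at 1032.5 mg/kg lay inside it. Gnmt fell 1.43-fold at 516.2 mg/kg (log2 change -0.51, SE 0.108, adjusted p = 0.00738), and at 1032.5 mg/kg the log2 change of -0.32 had an adjusted p of 0.0898. Bhmt, which remethylates homocysteine with betaine, varied from 11.78 to 13.13 in the vehicle and was not called (log2 change -0.71 at 1032.5 mg/kg, adjusted p = 0.129). Mat1a and Ahcy, which make S-adenosylmethionine and clear its product, stayed within 0.21 log2 of the vehicle mean.

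Amt, a part of the glycine cleavage system, was the 1 serine, threonine and glycine gene of 5 to be called. For Amt, the vehicle arrays held a lowest, median and highest log2 signal of 9.44, 9.70 and 9.74. With BPDP, Amt signals were 9.72, 9.47 and 9.72 at 64.6 mg/kg, 10.09, 9.73 and 9.63 at 129.2 mg/kg, 9.87, 9.85 and 9.93 at 258.1 mg/kg, 10.02, 9.97 and 10.07 at 516.2 mg/kg, and 9.80, 9.77 and 9.92 at 1032.5 mg/kg. The arrays at the 3 highest doses all lay above the vehicle range. Amt rose 1.28-fold at 516.2 mg/kg (log2 change 0.36, SE 0.093, adjusted p = 0.0262), and the call was lost without vehicle replicate 3 or replicate 1 or 3 of that dose (adjusted p up to 0.119) and with cyclic loess (0.0731). Gldc, another part of the system, changed by -0.32 at 516.2 mg/kg (adjusted p = 0.189). Tdh, at 4.61 in the vehicle, was dimmer than the lower quartile of every array (4.95 to 5.10), and Gcat was not called.

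**Figure D4:**
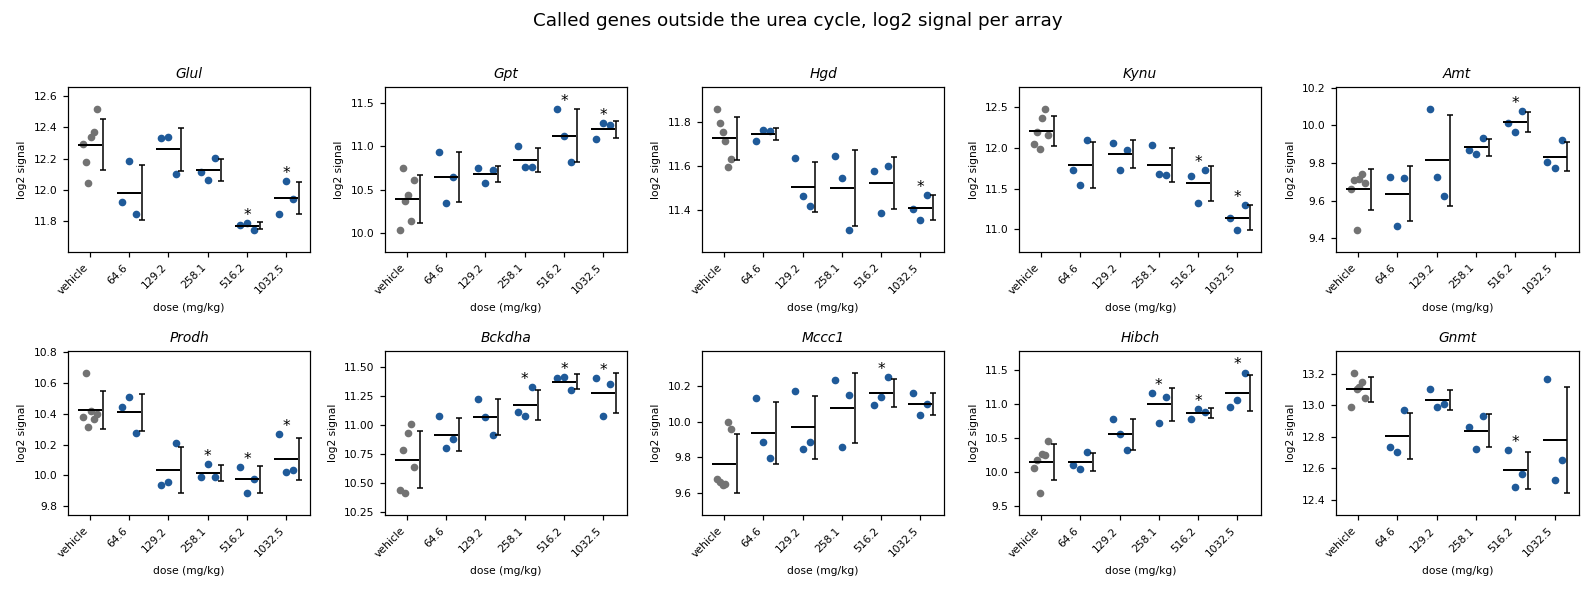
Log2 signal per array, by dose in mg/kg, of the 10 genes outside the urea cycle that were called at 1 dose or more. Points are arrays (vehicle grey, n = 6; dosed blue, n = 3), bars the group mean, whiskers the SD, and asterisks mark called doses. Hibch, Bckdha and Gpt lie above their vehicle ranges from 258.1 mg/kg on, Gpt only narrowly at that dose. Kynu lies lowest at 1032.5 mg/kg, at 10.99 to 11.30, and Glul and Gnmt have their lowest means at 516.2 mg/kg.

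Sds, serine dehydratase, is known to respond to glucagon, glucocorticoids and fasting, and was the most variable member among the dosed arrays. Sds had a lowest, median and highest log2 signal of 7.39, 7.56 and 8.27 among the vehicle arrays. Dosed arrays had Sds at 8.40, 10.05 and 8.57 at 64.6 mg/kg, 7.82, 7.18 and 8.24 at 129.2 mg/kg, 9.05, 8.0 and 9.35 at 258.1 mg/kg, 7.95, 7.41 and 7.48 at 516.2 mg/kg, and 7.33, 8.16 and 7.44 at 1032.5 mg/kg. Its arrays at 64.6 mg/kg all lay above the vehicle range, 1 of them at 10.05, and 2 of 3 did so at 258.1 mg/kg, while the groups overlapped at the other doses. No dose was called (adjusted p = 0.121 at 64.6 mg/kg and 0.0875 at 258.1 mg/kg). Hal, histidine ammonia lyase, had 11.17 to 11.39 at 64.6 mg/kg and 10.34 to 10.98 at 1032.5 mg/kg. Its slope across dosed arrays was -0.18 log2 per step (SE 0.038, adjusted p = 0.0168), although no dose differed from the vehicle by the test (adjusted p = 0.0539 at 1032.5 mg/kg). The slope was lost without replicate 2 or 3 of 64.6 mg/kg (adjusted p up to 0.064). Uroc1 and Ftcd, which follow Hal, were not called. Aass, the first enzyme of lysine breakdown, was lowest at 129.2 mg/kg (log2 change -0.65, adjusted p = 0.133) and nearer the vehicle at 1032.5 mg/kg (-0.26, adjusted p = 0.476).

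**Figure D5:**
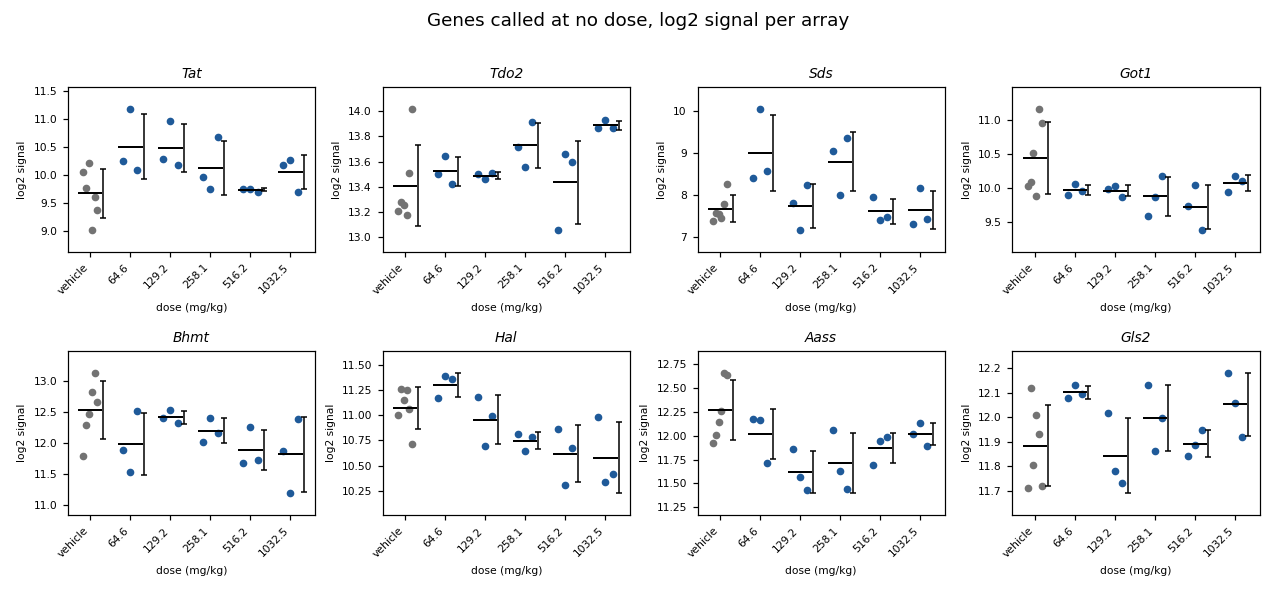
Log2 signal per array, by dose in mg/kg, of 8 genes called at no dose. Points are arrays (vehicle grey, n = 6; dosed blue, n = 3), bars the group mean and whiskers the SD. Sds reaches 10.05 in 1 array at 64.6 mg/kg against a vehicle range of 7.39 to 8.27, Got1 and Bhmt spread widely within the vehicle, and Hal falls across the dosed arrays.

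Over the dosed arrays alone 6 members had a called slope, beside 3.41% of genes (2.28% upward and 1.13% downward): Hibch, Gpt and Bckdha upward, Oat, Hal and Kynu downward. The moderated F over the 5 doses called 12 members, beside 6.71% of genes. Between 516.2 and 1032.5 mg/kg no member was called in limma, beside 0% of all genes. The unadjusted limma p was under 0.05 for 6 of the 47 members and for 1471 of all 14217 genes. In all, 16 members were called at 1 dose or more, and no member at all 5. The share of all genes called at 1 dose or more was not counted, so the 16 have no background beside them.

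Clock genes differed between every dosed group and the vehicle. Of 15 clock genes, 6 were higher and 3 lower at 64.6 mg/kg, and 8 higher and 4 lower at 1032.5 mg/kg. Among all genes 0.387% and 8.95% were called at these doses. Dbp, a clock output, went from 5.78 in the vehicle to 10.21 at 64.6 mg/kg and 10.57 at 1032.5 mg/kg. Nr1d1 was 6.44 in the vehicle and 9.26 and 8.56 at those doses, and Bmal1 8.52, 6.59 and 5.77. Among dosed arrays the Dbp slope was 0.09 log2 per step and was not called (adjusted p = 0.538), whereas Nr1d1 and Bmal1 read -0.17 and -0.23 (adjusted p = 0.148 and 0.104). Of the 15 clock genes 1 had a called slope, beside 3.41% of all genes. It was Npas2, at -0.48 log2 per step (adjusted p = 0.0125). The part of the clock genes in the members' differences from the vehicle was not tested.

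Of 39 further amino acid enzymes, 4 rose and 1 fell at 516.2 mg/kg, and 5 rose and 2 fell at 1032.5 mg/kg. Among all genes 6.3% were called higher and 2.64% lower at 516.2 mg/kg, and 4.81% and 4.14% at 1032.5 mg/kg. Cth and Cbs, which pass homocysteine sulphur to cysteine, fell 1.48-fold (adjusted p = 0.011) and 1.42-fold (adjusted p = 0.0015) at 1032.5 mg/kg. Gcdh, of lysine and tryptophan breakdown, rose 1.48-fold (adjusted p = 0.018), and Afmid, which acts just after Tdo2, rose 1.40-fold (adjusted p = 0.0228). Of 16 amino acid transporters none rose and 1 fell at 1032.5 mg/kg: Slc38a3, a glutamine carrier, was 1.19-fold lower (adjusted p = 0.0251). Among 19 regulators 2 rose at 1032.5 mg/kg, Klf15, a factor known to drive amino acid breakdown genes, 2.33-fold (adjusted p = 4.13e-05), and Creb3l3 1.28-fold (adjusted p = 0.00776). Klf15 was also higher at the other 4 doses, by 1.90-fold to 2.65-fold, and had no slope among dosed arrays (0.00 log2 per step, adjusted p = 0.979).

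Markers of other cell types were followed beside these results. Of all genes, 6.3% were called higher and 2.64% lower at 516.2 mg/kg, and 4.81% and 4.14% at 1032.5 mg/kg. Hepatocyte markers had a mean log2 level of 14.66 to 14.72 in the vehicle and 14.58 to 14.61 at 1032.5 mg/kg, where 2 of 11 fell (Apoa2 and Apoc3), and Alb was 15.34 in both groups, near the top of the array's range. Of 13 stellate cell and fibroblast markers 7 fell at 516.2 mg/kg and 4 at 1032.5 mg/kg, with means of 7.50 to 7.95 in the vehicle, 6.96 to 7.30 at 516.2 mg/kg and 7.29 to 7.42 at 1032.5 mg/kg. Of 5 red cell markers 2 fell at 1032.5 mg/kg, Hbb and Alas2. Kupffer cell and macrophage markers had 1 of 10 higher and 2 lower at 1032.5 mg/kg, with means of 9.70 to 10.20 in the vehicle and 9.37 to 9.68 at that dose. Their median log2 change there was -0.563, and 9 of the 10 were negative. Lymphocyte markers had 2 of 10 lower at 1032.5 mg/kg, and cholangiocyte markers 1 of 5 higher. No neutrophil or endothelial marker was called at 1032.5 mg/kg, of 6 and 9, and 1 of each fell at 516.2 mg/kg. The 5′ minus 3′ difference of the control probes was -1.95 ± 0.294 log2 (SD, n = 6) in the vehicle, -2.30 ± 0.644 at 516.2 mg/kg and -1.54 ± 0.371 at 1032.5 mg/kg (n = 3 each). The part of these in the members' results was not tested. Array pairs correlated at r from 0.984 to 0.995 over probe sets, and vehicle replicate 6 was the least like its own group (mean r 0.989).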

How the data were processed

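Liver RNA (100 ng per sample) was read on Affymetrix rat arrays. The authors deposited log2 signals per probe set, made with RMA, per the submitters' processing notes, whose version and settings were not given in the sources used here. Values were used as deposited, with no filter or further scaling. After 57 array controls were set aside, 31042 probe sets remained, of which 20826 name 1 gene, 436 several and 9780 none. Symbols followed the RefSeq gene table of GRCr8 (20758 by Entrez identifier, 2 by accession, 66 kept from the platform). Arrays hold no read depth, and their number, 6 and 3 per group, limits precision.

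limma 3.58.1 (lmFit, eBayes) in R 4.3.3 fitted all 21 arrays with 6 group means; p-values are two-sided and Benjamini-Hochberg adjusted over all probe sets, with a threshold of 0.05. Slopes used the 15 dosed arrays and dose steps 1 to 5. The scripts were tested on simulated data. Members and lists were chosen with earlier results of these data known. Every measured member could be named; full values were given for the 14 called members with the largest change at 516.2 or 1032.5 mg/kg, for 11 index members and, chosen after their values were seen, for Sds. Other lists give up to 4 called genes each. Alternatives included a fit of only the groups compared, cyclic loess, array median subtraction, the replicate number as a block, a 5′ minus 3′ covariate, averaging a gene's probe sets, other probe sets and each array left out.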

Additional observations from a re-analysis of the deposited data

Results flagged for a closer look

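Among the 47 members, 4 had a vehicle array far from the other 5 by Dixon's gap test, which chance gives in about 1 group in 20. Ftcd had its lowest vehicle signal, 12.8, in replicate 1, with the others at 12.97 to 13.07. For Amt replicate 3 was lowest at 9.44, with the others at 9.66 to 9.74. For Prodh replicate 2 was highest at 10.67, with the others at 10.32 to 10.42. For Mccc2 replicate 6 was highest at 11.28, with the others at 10.91 to 11.01.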

How the results depend on the processing

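With only the groups compared in the fit, the counts of members called were 0 at 64.6 mg/kg and 3 at 258.1 mg/kg, and the latter was 3 when a gene's probe sets were averaged. With cyclic loess 1 member was called at 129.2 mg/kg. With each array left out in turn, the counts were 0 to 1 at 64.6 and at 129.2 mg/kg, 2 to 7 at 258.1, 9 to 14 at 516.2 and 8 to 15 at 1032.5 mg/kg, 9 to 13 by the moderated F, 3 to 7 for the slope and 0 throughout between 516.2 and 1032.5 mg/kg, while the median shift at 1032.5 mg/kg was 0.01 to 0.064. The count at 64.6 mg/kg was 0 without vehicle replicate 5 or replicate 1 or 2 of that dose, the count at 129.2 mg/kg was 1 without vehicle replicate 4, the count at 258.1 mg/kg was 3 and 2 without its replicates 1 and 3, and the slope count was 3 without replicate 2 or 3 of 64.6 mg/kg. Reversed values were 0.16 for a dim Prodh probe set at 258.1 mg/kg, -0.014 and -0.186 for a dim Bckdha probe set at 516.2 and 1032.5 mg/kg, and Bckdha slopes of -0.212 for that probe set and -0.055 for the mean of both. Over single members, counting each setting and each fit with 1 array left out, 1089 values kept direction and side of the threshold. A further 125 lost it, 11 gained it and 5 reversed. The 1089 include values of index members not called in the main fit. They also include slope fits without a vehicle array, which could not change. The causes were not tested.

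The replicate numbers showed no clear pairing of the samples. Over 45 same-numbered pairs the mean correlation of deviations was 0.03, against -0.01 for other numbers. Of these pairs 13 lay above 0.1, and 9 of 18 samples correlated best with their own number. These values cannot exclude pairing. With the replicate block, the moderated F called 7 members and the doses 1, 0, 4, 11 and 11, of which 7 were higher and 4 lower at 1032.5 mg/kg.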
